A study of Homo sapiens with 3 samples.

Results

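Aminoacyl-tRNA synthetases are the enzymes that join each amino acid to its transfer RNA, and 35 of their genes were followed here, 19 coding for cytosolic enzymes and 16 for mitochondrial ones, out of 26555 genes in the deposited tables. The members were taken from a fixed list of current gene symbols, chosen with earlier results of these data known. They were matched through the RefSeq transcript accessions of the tables, and values were summed over all entries of a gene. The data are RNA-seq values of MTAC-P, a human lung cancer line derived from PC9 cells and resistant to inhibitors of the EGFR tyrosine kinase. The control is 1 library of MTAC-P cells with a short hairpin against luciferase. The compared group is 2 libraries of the same line with a short hairpin against BCAT1, called shBCAT1 1 and shBCAT1 2 after their labels. All cells were grown in DMEM with 10% serum. The labels give neither the hairpin sequences, nor whether the libraries labelled shBCAT1 share a hairpin, nor whether they came from separate cultures or clones, so a p-value here reflects only how these libraries vary, and that variation may be technical. In bulk RNA, fewer cells that express a gene and less of its RNA per cell cannot be told apart.

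Synthetases form 2 unrelated structural classes, I and II, and most mitochondrial enzymes are made from nuclear genes of their own. GARS1 and KARS1 serve both compartments, and EPRS1 carries glutamyl and prolyl activities in one chain. In the cytosol several of the enzymes sit together in the multi-synthetase complex. When amino acids run short, uncharged tRNA activates the kinase GCN2 (EIF2AK4), translation of the transcription factor ATF4 increases, and ATF4 is known to induce many cytosolic synthetase genes along with amino acid transporters and biosynthetic enzymes. BCAT1, the target of the hairpins, transaminates leucine, isoleucine and valine, which are also the substrates of LARS1, IARS1 and VARS1.

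The values are FPKM, fragment numbers scaled to transcript length and to the mapped fragments of the library, with confidence bounds from Cufflinks that cover counting and assignment error within 1 library. FPKM summed to 53898 in the control, 44313 in shBCAT1 1 and 46145 in shBCAT1 2, and the 35 synthetase genes held 0.101%, 0.118% and 0.144% of these sums. The larger share in shBCAT1 1 came with the smaller library sum. Synthetase FPKM was not higher there than in the control, at 41.3 against 43.2 for cytosolic and 10.9 against 11.2 for mitochondrial genes. For BCAT1 the control library gave 0.213 FPKM (0.134 to 0.297), shBCAT1 1 gave 1.05 (0.836 to 1.27) and shBCAT1 2 gave 0.241 (0.162 to 0.325). The target was thus not lower than the control in either library labelled shBCAT1 and was higher in the library labelled shBCAT1 1, so every direction below is between libraries as labelled. Epithelial markers were present, with KRT7, KRT8, KRT18 and KRT19 between 87.7 and 410 FPKM in all libraries and EPCAM between 3.28 and 3.91, while the lung lineage genes NKX2-1 and NAPSA reached at most 0.101 and 0.224 FPKM. Summed leukocyte, fibroblast and endothelial markers reached at most 0.258, 0.259 and 0.221 FPKM.

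Synthetase transcripts were of moderate to low abundance. In the control the cytosolic genes ranged from 0.506 FPKM for IARS1 to 5.92 FPKM for FARSA, with a median of 2.06, and the mitochondrial genes from 0.0914 FPKM for PARS2 to 2.57 FPKM for CARS2, with a median of 0.521. The medians were 1.88 and 0.475 FPKM in shBCAT1 1 and 2.49 and 0.692 FPKM in shBCAT1 2. FARSA, the catalytic subunit of phenylalanyl-tRNA synthetase, had the highest value of the 35 in all 3 libraries. Its control bounds (4.95 to 6.9 FPKM) overlapped those of SARS1, the seryl enzyme and next in order at 4.22 FPKM (3.42 to 5.02), so the order of these neighbours was not resolved. For 50 of the 54 values of genes with a single entry, the bounds were those of a whole number of fragments within 0.02. Read this way, the median cytosolic gene rested on 65 equivalent fragments in the control and the median mitochondrial gene on 18.2, with a lowest single-entry value of 3 for PARS2. FARSB, with 2 entries, gave 2.76 in the control at 2.52 FPKM, beside 75.2 in shBCAT1 1 and 94.2 in shBCAT1 2. Its control bounds also hold the error of assigning reads between entries, so 2.76 is not a fragment number.

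**Figure D1:**
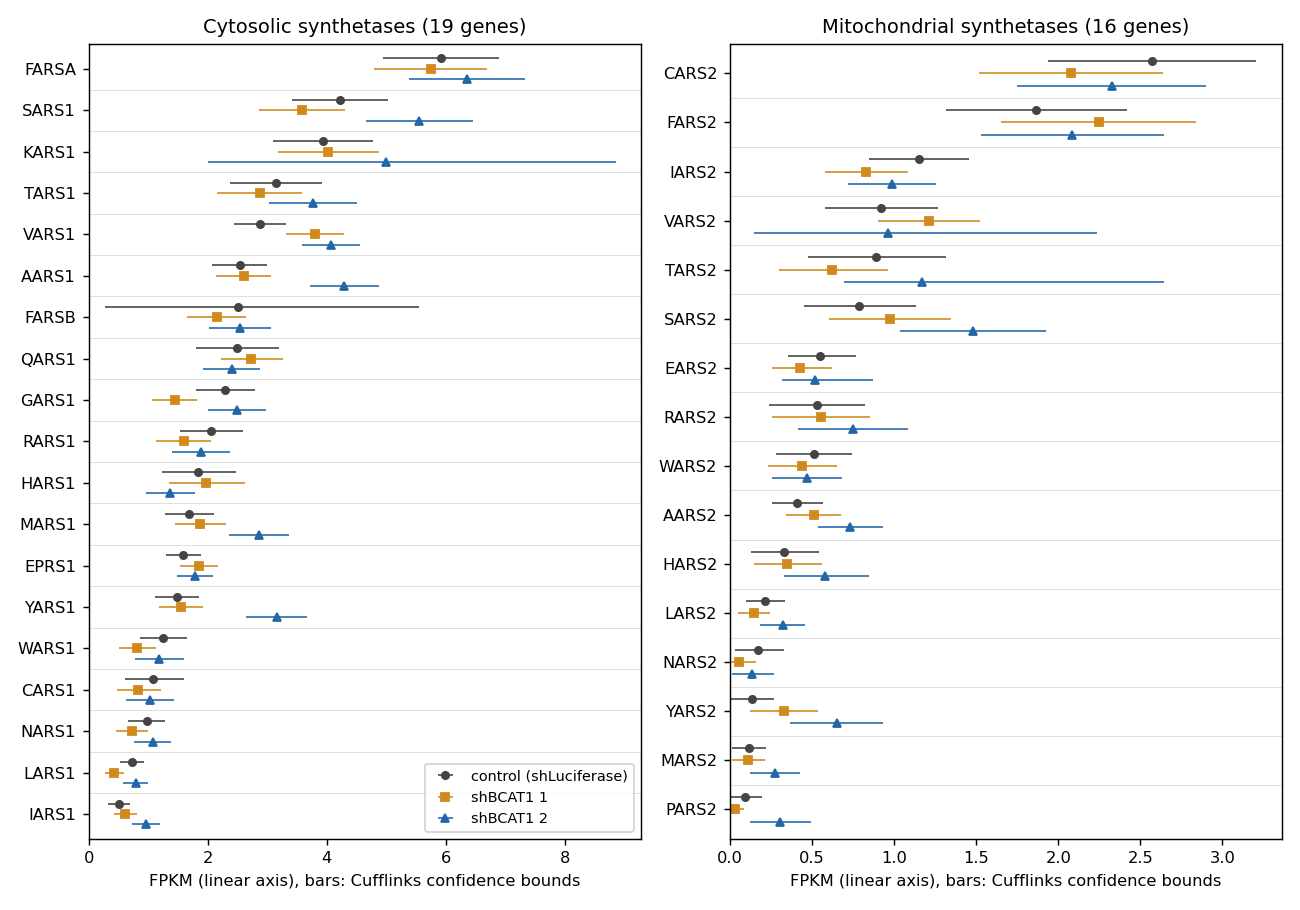
FPKM of each synthetase gene in the control (dark grey circles), shBCAT1 1 (orange squares) and shBCAT1 2 (blue triangles), with cytosolic genes on the left, mitochondrial genes on the right and a separate linear axis for each. Bars are Cufflinks bounds within a library; FARSA is the highest gene in each library and YARS1, AARS1 and MARS1 show shBCAT1 2 to the right of both other libraries.

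Among the 13 amino acids with a numbered cytosolic and mitochondrial pair, the cytosolic gene had the higher FPKM in 11 in each library, with median ratios of 3.88, 3.69 and 3.22 in the control, shBCAT1 1 and shBCAT1 2. The widest gap was that of the methionyl enzymes, where MARS1 was 14.7, 16.8 and 10.4 times MARS2. The order was opposite for the cysteinyl enzymes, with CARS1 at 1.09, 0.833 and 1.02 FPKM and CARS2 at 2.57, 2.08 and 2.32 FPKM in the control, shBCAT1 1 and shBCAT1 2, and their bounds lay apart in each library. It was also opposite for the isoleucyl enzymes, with IARS1 at 0.439 times IARS2 in the control (bounds apart) and at 0.745 and 0.972 times in the libraries labelled shBCAT1, where the bounds overlapped. FPKM is scaled to transcript length, so these ratios compare levels per transcript length.

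**Figure D2:**
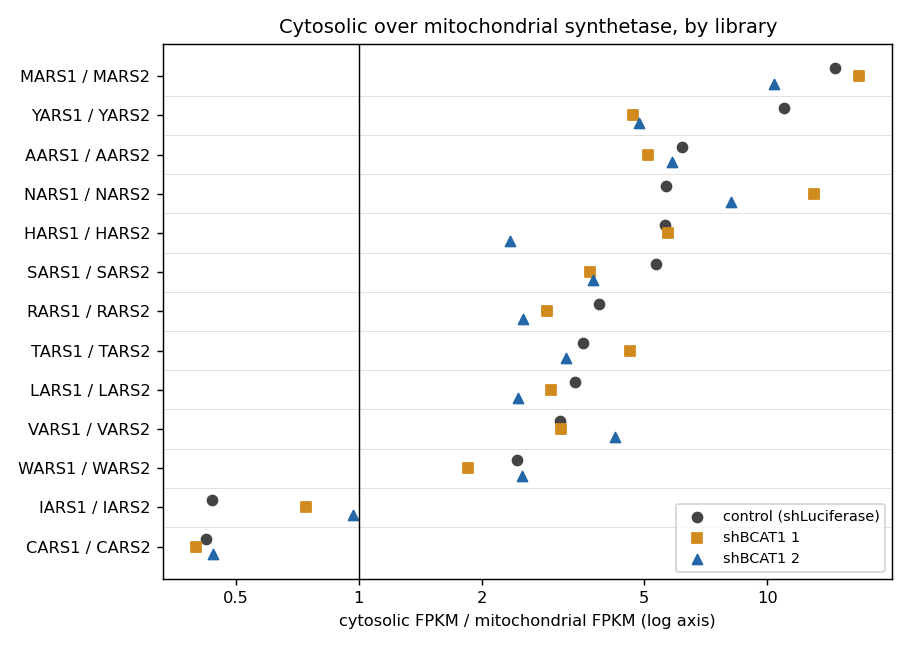
Ratio of cytosolic to mitochondrial FPKM for 13 amino acids in each library, on a log axis with a line at 1. The cysteinyl and isoleucyl pairs lie below 1 in all 3 libraries and the other 11 pairs above it.

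The main comparison asks which synthetase transcripts differ when BCAT1 is targeted. Of the 35 genes, 19 reached the minimum mean of 1 FPKM set for the test, 15 cytosolic and 4 mitochondrial (CARS2, FARS2, SARS2 and VARS2). By limma on log2(FPKM + 1), 0 of the 19 passed an adjusted p of 0.05 and 0 had an unadjusted p under 0.05. Of all 3889 genes tested, 0% were called higher and 0.36% lower at the adjusted p, and 0.643% were higher and 4.96% lower at the unadjusted p. Adjusted p for the 19 ran from 0.803 for VARS1 to 0.979 for FARSA. Without the minimum, 0 of all 35 passed, and adjusted p ran from 0.803 to 1 by limma. With 1 control library the spread rests on 1 residual degree of freedom, so these p-values do not show that values were alike.

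Fitted differences were spread around 0. The median log2(FPKM + 1) difference from the control was 0.050 over the 15 cytosolic genes and 0.13 over the 4 mitochondrial genes tested, beside -0.059 over all genes tested. It was above 0 for 13 of the 19 genes, beside 41.5% of all genes tested. In shBCAT1 1 the value was above the control for 11 of the 19, beside 31.1% of all genes, and in shBCAT1 2 for 14, beside 50.8%. The libraries share the control, so their counts are not independent.

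Bounds that lie apart from those of the control give a second reading, for 1 library at a time. In shBCAT1 1, 1 of the 19 genes lay higher with bounds apart and 0 lower, beside 1.68% and 7.7% of all genes at the minimum. In shBCAT1 2, 4 lay higher and 0 lower, beside 7.69% and 7.69%. Across all 35 genes with no minimum these counts were 1 higher in shBCAT1 1, beside 0.741%, and 6 higher in shBCAT1 2, beside 3.69%, with 0 lower in both, beside 2.54% and 2.51%. With bounds 1.5 times as wide, 0 remained in shBCAT1 1 and 2 of the 19 in shBCAT1 2, AARS1 and YARS1. The share of all genes was not computed for the wider bounds, so these counts have no background to be read against.

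**Figure D3:**
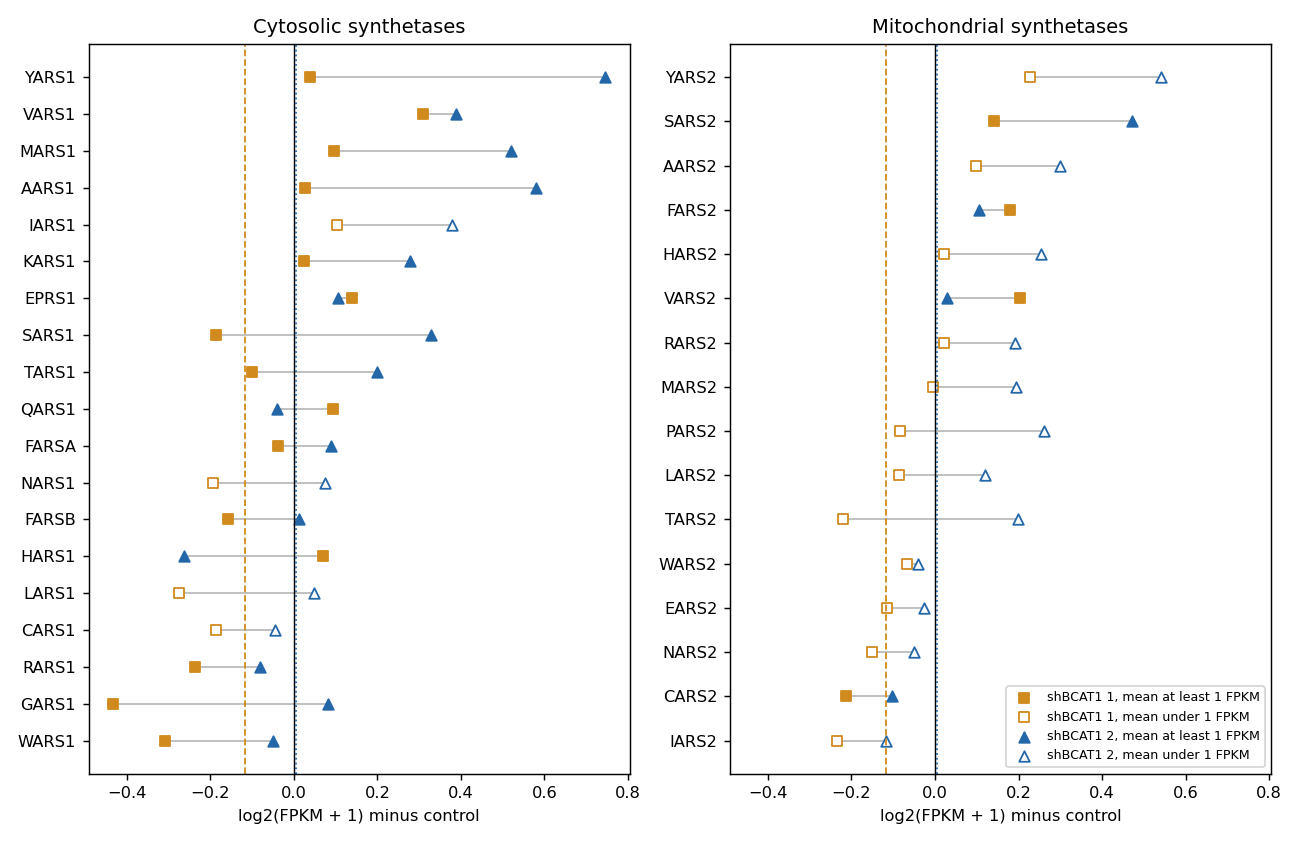
Difference of log2(FPKM + 1) from the control for each synthetase gene in shBCAT1 1 (orange squares) and shBCAT1 2 (blue triangles), joined by a grey line, with open symbols for genes with a mean under 1 FPKM. Dashed and dotted lines mark the medians of all genes tested in shBCAT1 1 and shBCAT1 2; YARS1, AARS1 and MARS1 lie far right in shBCAT1 2 and near 0 in shBCAT1 1, and VARS1 lies right of 0 in both.

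VARS1, the cytosolic valyl-tRNA synthetase (chromosome 6, 31777520 to 31795935, hg38), was the only one of the 35 genes with bounds apart from the control in both libraries. The control held 2.88 FPKM (2.45 to 3.31), shBCAT1 1 held 3.80 (3.31 to 4.29) and shBCAT1 2 held 4.08 (3.58 to 4.57). Both libraries labelled shBCAT1 were thus above the control and overlapped each other. These are 1.32 and 1.42 times the control, with 3.94 ± 0.19 FPKM as the shBCAT1 mean (SD, n = 2). The fitted difference was 0.35 ± 0.19 on the log2(FPKM + 1) scale (SE), with a limma adjusted p of 0.803. In shBCAT1 1 the bounds were separated only in the third decimal. LARS1, the leucyl enzyme, was at 0.730 FPKM in the control, 0.430 in shBCAT1 1 and 0.788 in shBCAT1 2, with overlapping bounds throughout. IARS1, the isoleucyl enzyme, was at 0.506, 0.617 and 0.957 FPKM, and its bounds in shBCAT1 2 (0.722 to 1.19) lay just above those of the control (0.330 to 0.687). IARS1 thus had the same order of libraries as VARS1, while LARS1 was lowest in shBCAT1 1. Their mitochondrial counterparts had overlapping bounds, with IARS2 at 1.15, 0.829 and 0.985 FPKM, LARS2 at 0.216, 0.145 and 0.320 and VARS2 at 0.922, 1.21 and 0.962.

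ATF4 binds, with C/EBP family partners, a composite element whose core is written TGATGNAA. Both strands of the 300-base RefSeq promoter windows (GRCh38.p14, 250 bases before to 50 after the annotated start) were searched for these letters. Windows were found for 30 of the 35 members, so that VARS1, YARS1, LARS1, AARS2 and VARS2 were not searched, and 8 held a match, 7 of 16 cytosolic and 1 of 14 mitochondrial genes, beside 4.46% of the 27305 genes with a window and 1.92% of the tested genes that have one. The form TGATGCAA was present in AARS1, CARS1, IARS1, MARS1, NARS1 and TARS1, 6 of the 30 members with a window, beside 1.08% of all genes with one. Sequences run 5′ to 3′ on the strand of the gene, and capitals mark the match, which reads TTGCATCA where it lies on the opposite strand. A match describes letters in a window and does not show that the factor is bound.

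The promoter windows of AARS1 and MARS1 are given whole, as examples of a match far upstream of the RefSeq start and of one next to it. Both genes had bounds apart from the control in shBCAT1 2. AARS1 is on the minus strand at chr16:70289457-70289756, MARS1 on the plus strand at chr12:57487818-57488117.
AARS1: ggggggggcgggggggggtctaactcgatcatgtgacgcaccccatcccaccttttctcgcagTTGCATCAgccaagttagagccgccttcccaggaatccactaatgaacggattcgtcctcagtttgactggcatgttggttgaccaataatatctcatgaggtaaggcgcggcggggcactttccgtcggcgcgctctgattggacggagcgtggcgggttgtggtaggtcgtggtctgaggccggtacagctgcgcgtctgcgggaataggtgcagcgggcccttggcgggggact
MARS1: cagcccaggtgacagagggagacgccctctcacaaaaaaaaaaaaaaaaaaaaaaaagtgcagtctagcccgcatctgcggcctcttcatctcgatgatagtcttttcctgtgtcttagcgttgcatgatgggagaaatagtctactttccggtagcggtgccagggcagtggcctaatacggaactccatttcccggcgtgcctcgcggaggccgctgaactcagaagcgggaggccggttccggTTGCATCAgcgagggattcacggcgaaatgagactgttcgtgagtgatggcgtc

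For the other TGATGCAA matches, that of IARS1 included, whose bounds also lay apart in shBCAT1 2, 48 bases around the site are given so that the flanks can be compared. They lie at chr9:92293683-92293730 (IARS1, minus strand), chr5:33440947-33440994 (TARS1, plus strand), chr11:3057398-3057445 (CARS1, minus strand) and chr18:57621795-57621842 (NARS1, minus strand).
IARS1: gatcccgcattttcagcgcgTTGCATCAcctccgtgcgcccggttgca
TARS1: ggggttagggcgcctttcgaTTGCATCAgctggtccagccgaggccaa
CARS1: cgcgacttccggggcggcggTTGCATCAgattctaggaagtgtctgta
NARS1: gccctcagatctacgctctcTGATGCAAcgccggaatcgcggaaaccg
With the annotated start as position 0, the first base of the match was at -187 in AARS1, -13 in IARS1, -4 in MARS1, -2 in CARS1, 2 in TARS1 and 14 in NARS1. Relative to the RefSeq start, the match thus began within 14 bases in 5 of these 6 genes and well upstream in AARS1. The loci of the deposited values can start elsewhere. That of MARS1 starts at base 57487953, within its window and before the match. The matches of IARS1, TARS1, CARS1 and NARS1 also lie inside the loci of their deposited values. That of AARS1 lies upstream of its locus, which ends at base 70289509. GARS1 (TGATGAAA, at -33) and YARS2 (TGATGGAA, at -197) held other forms.

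AARS1, MARS1 and YARS1, each from a single transcript entry, had bounds apart from the control in shBCAT1 2 and not in shBCAT1 1, and MARS1 no longer did with the wider bounds. For YARS1, the tyrosyl enzyme (chromosome 1, 32775239 to 32818032), the control held 1.48 FPKM (1.11 to 1.85), shBCAT1 1 held 1.55 (1.18 to 1.92) and shBCAT1 2 held 3.16 (2.65 to 3.68). AARS1, the alanyl enzyme (chromosome 16, 70252394 to 70289509), was at 2.54 FPKM (2.08 to 3.004), 2.61 (2.15 to 3.07) and 4.29 (3.72 to 4.87). MARS1, the methionyl enzyme of the multi-synthetase complex (chromosome 12, 57487953 to 57516655), was at 1.69 FPKM (1.28 to 2.1), 1.88 (1.46 to 2.3) and 2.86 (2.35 to 3.36). In each gene shBCAT1 1 was within the bounds of the control, while shBCAT1 2 was above both other libraries, at 2.13, 1.69 and 1.69 times the control. They rested on 65, 120 and 69 equivalent fragments in the control and 151, 221 and 127 in shBCAT1 2. The fitted differences were 0.39 ± 0.36 for YARS1, 0.30 ± 0.30 for AARS1 and 0.31 ± 0.26 for MARS1 on the log2(FPKM + 1) scale (SE), with limma adjusted p of 0.842, 0.848 and 0.839. The spread between the libraries labelled shBCAT1 was therefore as large as the difference from the control.

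The other cytosolic genes had overlapping bounds with the control in both libraries. SARS1 was at 4.22 FPKM in the control, 3.59 in shBCAT1 1 and 5.56 in shBCAT1 2, and TARS1, the threonyl enzyme, at 3.15, 2.87 and 3.76. GARS1, the glycyl enzyme, was at 2.30, 1.44 and 2.49 FPKM and WARS1, the tryptophanyl enzyme, known to be induced by interferon, at 1.25, 0.819 and 1.18. In SARS1 and TARS1 shBCAT1 1 was the lowest and shBCAT1 2 the highest library, and in GARS1 and WARS1 shBCAT1 1 alone was low. NARS1, the asparaginyl enzyme, was at 0.974, 0.727 and 1.08 FPKM. Of the complex, KARS1, the lysyl enzyme, was at 3.94, 4.03 and 4.99 FPKM, QARS1, the glutaminyl enzyme, at 2.50, 2.73 and 2.40, RARS1, the arginyl enzyme, at 2.06, 1.60 and 1.89, and EPRS1 at 1.59, 1.85 and 1.79. The 2 subunits of the phenylalanyl enzyme were even across libraries, FARSA at 5.92, 5.75 and 6.36 FPKM and FARSB at 2.52, 2.15 and 2.55. HARS1, the histidyl enzyme, was at 1.84, 1.98 and 1.36 FPKM. It and HARS2 overlap over 302 bases on chromosome 5, and as the strand of the libraries is not given, reads there cannot be assigned to one of them.

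Summed over genes, with bounds combined as independent errors, the 19 cytosolic synthetases stood at 43.2 FPKM in the control (39.9 to 47.0), 41.3 in shBCAT1 1 (39.0 to 43.5) and 52.6 in shBCAT1 2 (48.8 to 57.0). The sum in shBCAT1 2 lay above both others in FPKM as deposited. Sums were not scaled for the general offset between libraries, where factors from the median gene were 1.04 in the control, 0.931 in shBCAT1 1 and 1.05 in shBCAT1 2. With these factors not applied, the gap in the sum of the 19 genes between shBCAT1 1 and shBCAT1 2 is not resolved. The 12 of them listed as genes of the amino acid response (AARS1, CARS1, EPRS1, GARS1, IARS1, LARS1, MARS1, NARS1, SARS1, TARS1, WARS1 and YARS1) summed to 21.5 FPKM (19.9 to 23.2), 19.2 (17.7 to 20.7) and 28.9 (27.2 to 30.7). The 7 others (FARSA, FARSB, HARS1, KARS1, QARS1, RARS1 and VARS1) summed to 21.7 (18.8 to 25.1), 22.0 (20.3 to 23.8) and 23.6 (20.3 to 27.8). The first sum was thus separated in shBCAT1 2 from both other libraries and the second overlapped in all 3, as values of single libraries with no test of the difference between the lists. Of the 12 genes, 10 were above the control in shBCAT1 2, beside 50.8% of all genes tested, and 2, CARS1 and WARS1, were below it. Bounds lay apart above the control for 4 of the 12, beside 7.69% of all genes at the minimum and 3.69% of all genes above 0. Only 8 of the 12 reached the minimum, and the list was chosen with earlier results of these data known. The 7 were grouped after values had been seen. Their sum had wide bounds, with KARS1 at 2.01 to 8.86 FPKM in shBCAT1 2 and FARSB at 0.278 to 5.54 in the control. The 7 enzymes of the multi-synthetase complex summed to 13.0, 13.1 and 15.7 FPKM, with overlapping bounds.

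The libraries labelled shBCAT1 also differed from each other. Of the 19 genes, 5 were higher in shBCAT1 2 than in shBCAT1 1 with bounds apart and 0 were lower, beside 8.01% and 1.79% of all genes at the minimum. With no minimum, 6 of the 35 were higher and 0 lower, beside 3.7% and 0.713%. The 5 were AARS1, GARS1, MARS1, SARS1 and YARS1, at 1.65, 1.73, 1.52, 1.55 and 2.04 times shBCAT1 1 in FPKM as deposited. The scaling factors, 0.931 for shBCAT1 1 and 1.05 for shBCAT1 2, were not applied. Upper bounds in shBCAT1 1 and lower bounds in shBCAT1 2 were close in MARS1 (2.30 and 2.35), GARS1 (1.83 and 2.00) and SARS1 (4.32 and 4.66). Gaps so narrow are not resolved without scaling. All 5 genes are on the amino acid response list, which holds 8 of the 19 genes. That list was chosen with earlier results of these data known, so this is a description and not a test. Any value was higher in shBCAT1 2 for 14 of the 19, beside 68% of all genes tested. Epithelial markers had the same order of these libraries, with a sum of 938 FPKM in the control, 786 in shBCAT1 1 and 1092 in shBCAT1 2, and their part in the result was not tested.

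Mitochondrial synthetases were mostly near the limit of what the depth can resolve. CARS2 and FARS2, the most abundant in the control, were at 2.57, 2.08 and 2.32 FPKM and at 1.87, 2.24 and 2.09 FPKM in the control, shBCAT1 1 and shBCAT1 2, with overlapping bounds. SARS2, the mitochondrial seryl enzyme, was at 0.788, 0.973 and 1.48 FPKM, a fitted difference of 0.31 ± 0.22 with a limma adjusted p of 0.808. YARS2, the mitochondrial tyrosyl enzyme, had 0.135 FPKM in the control (0 to 0.270), 0.329 in shBCAT1 1 (0.122 to 0.537) and 0.650 in shBCAT1 2 (0.367 to 0.934), and was the only mitochondrial gene with bounds apart from the control, in shBCAT1 2. Its control value rested on 4 equivalent fragments, and its limma adjusted p without the minimum was 0.829. PARS2, the mitochondrial prolyl enzyme, was at 0.0914, 0.0295 and 0.308 FPKM, on 3, 1 and 11 equivalent fragments, and lay higher in shBCAT1 2 than in shBCAT1 1 with bounds apart.

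AARS2 was at 0.410, 0.509 and 0.734 FPKM, HARS2 at 0.327, 0.346 and 0.581, RARS2 at 0.530, 0.554 and 0.749, TARS2 at 0.890, 0.622 and 1.17, and MARS2 at 0.115, 0.112 and 0.275. In these 5 shBCAT1 2 had the highest value, with bounds that overlapped the control. EARS2, the mitochondrial glutamyl enzyme, was at 0.548, 0.429 and 0.521 FPKM, WARS2 at 0.511, 0.441 and 0.469 and NARS2 at 0.172, 0.0557 and 0.132, with the control highest and overlapping bounds. The 16 genes summed to 11.2 FPKM in the control (10.0 to 12.5), 10.9 in shBCAT1 1 (9.74 to 12.1) and 13.7 in shBCAT1 2 (12.2 to 16.0). In FPKM as deposited, shBCAT1 2 overlapped the control and lay just above shBCAT1 1. The scaling factors of these libraries, 0.931 for shBCAT1 1 and 1.05 for shBCAT1 2, were not applied, so so narrow a gap is not resolved.

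Other genes of tRNA charging and its sensing were read from lists chosen with earlier results of these data known. Of their members at the minimum, 0 passed the limma test. Of 18 amino acid response targets, 10 were at the minimum, with a median log2(FPKM + 1) difference of -0.069 in shBCAT1 1 and 0.16 in shBCAT1 2, beside -0.12 and 0.0053 over all genes tested. In shBCAT1 2, 2 of the 10 had bounds apart above the control, beside 7.69% of all genes at the minimum, and they are named after their values were seen. PHGDH, the first enzyme of serine synthesis, was at 6.53, 6.69 and 11.7 FPKM and SLC7A5, the light chain of a leucine transporter, at 6.05, 6.79 and 11.6. ASNS, asparagine synthetase, was at 0.753, 0.644 and 1.99 FPKM, with bounds that overlapped the control. ATF4 itself was at 19.5 FPKM in the control, 15.7 in shBCAT1 1 and 24.2 in shBCAT1 2, and GCN1, the partner of the kinase GCN2, at 1.04, 1.33 and 1.80, both with bounds apart above the control in shBCAT1 2. GCN2 itself, EIF2AK4, was at 0.249, 0.303 and 0.160 FPKM. Other targets did not have shBCAT1 2 highest, among them SLC3A2, the heavy chain that pairs with SLC7A5, at 12.9, 11.9 and 12.6 FPKM, PSPH, the last enzyme of serine synthesis, at 7.75, 5.86 and 7.31, and the transcription factor CEBPB at 3.14, 3.65 and 3.39.

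**Figure D4:**
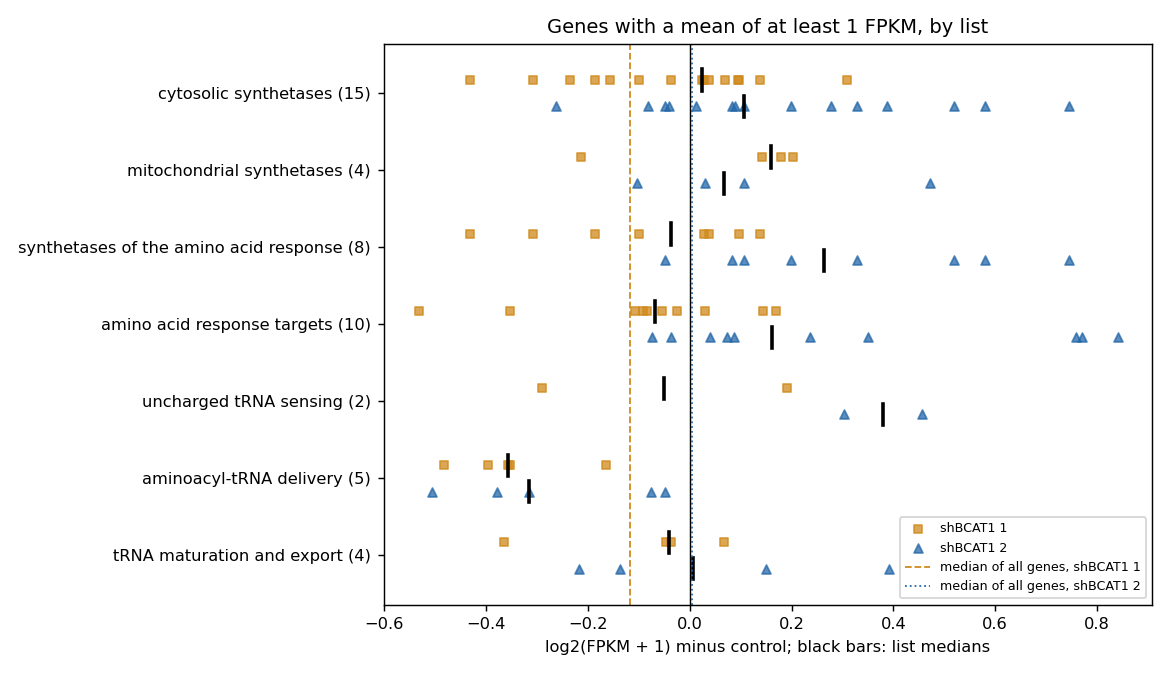
Differences of log2(FPKM + 1) from the control for genes that reach the minimum, by list, in shBCAT1 1 (orange squares) and shBCAT1 2 (blue triangles). Black bars are list medians and the number of genes is in brackets; the 8 amino acid response synthetases have medians of -0.036 and 0.26, and the 5 aminoacyl-tRNA delivery genes of -0.36 and -0.32.

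Of the 8 genes listed for carrying charged tRNA to the ribosome, 5 were at the minimum, and these were below the control in each library. Of the 3889 genes tested, 2672 were below it in shBCAT1 1 and 1906 in shBCAT1 2. The 5 delivery genes had a median fitted difference of -0.36, beside -0.22 over the 1042 genes with a mean of 5 FPKM or more. TSFM, the mitochondrial exchange factor, was under the minimum, at 0.942 FPKM in the control, 0.949 in shBCAT1 1 and 1.09 in shBCAT1 2. EEF1A1, which brings aminoacyl-tRNA to the ribosome, was at 96.9 FPKM in the control, 73.4 in shBCAT1 1 and 77.6 in shBCAT1 2, with bounds apart in both and a limma adjusted p of 0.798. EEF1B2 and EEF1G, subunits of its exchange factor, were at 30.4, 21.5 and 23.1 FPKM and at 76.7, 59.6 and 72.7 FPKM, with bounds apart below the control in shBCAT1 1. In all, 3 of the 5 lay lower with bounds apart in shBCAT1 1 and 1 in shBCAT1 2, beside 7.7% and 7.69% of all genes at the minimum. Counting bounds are narrow for abundant genes, and EEF1A1 rested on 4820 equivalent fragments in the control. EEF1A1 shares reads with many processed pseudogenes and is uncertain for that reason. TUFM, its mitochondrial counterpart, was at 9.25, 8.15 and 8.92 FPKM with overlapping bounds. The scaffold genes of the multi-synthetase complex had overlapping bounds, with AIMP1 at 1.26, 1.12 and 1.08 FPKM and EEF1E1 at 1.63, 0.884 and 1.35. AIMP2 lacked an OK status in at least 1 library and was left out. DTD1, which removes D-amino acids from tRNA, was at 2.68, 2.99 and 4.51 FPKM, with bounds apart above the control in shBCAT1 2. Of 16 genes of tRNA maturation and export, 4 were at the minimum (ELAC2, POP5, RTCB and TSEN34), and 0 of the 16 had bounds apart from the control in either library. Of all genes above 0, 0.741% lay higher and 2.54% lower in shBCAT1 1, and 3.69% and 2.51% in shBCAT1 2, so a count of 0 is no result about these genes.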

How the data were processed

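The authors deposited FPKM with lower and upper bounds for each library, 1 row per RefSeq transcript and locus, with no read counts. Trim Galore, TopHat, Cufflinks and the build hg38 are named per the submitters' processing notes, while the sources used here do not give roles, versions, settings, annotation or strand. Of 50337 accessions, a RefSeq table (GRCh38.p14) named 49281 and GENCODE 645, and 411 kept their accession. FPKM was summed over the 56882 rows to 26555 genes, with bounds combined as root sums of squares. Genes without an OK status in all libraries were left out. Equivalent fragments are the square of value over SD, with 2 SDs from value to upper bound. Values of 0 were not compared by bounds.

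limma 3.58.1 (R 4.3.3) was fitted on log2(FPKM + 1) for genes whose FPKM averaged 1 or more, with a mean-variance trend, 1 residual and 2.99 prior degrees of freedom and Benjamini-Hochberg adjustment over 3889 genes. Tests are two-sided. A check on simulated data required only that fitted differences followed the set ones in size and direction, not that they were called. Differences on this scale are smaller than the true log2 ratio for low genes. FPKM does not correct for a few abundant transcripts. Tables were built in pandas 2.3.3 and numpy 2.4.6, plots in matplotlib 3.10.9, under Python 3.11.15. The rule names all 35 members, BCAT1, and pathway genes with bounds apart from the control in the same direction in both libraries, which gave EEF1A1, and every other pathway gene was named after its values were seen. The members and lists were chosen with earlier results of these data known. The 7 cytosolic genes outside the amino acid response list were grouped, and the TGATGCAA form counted, after values had been seen.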

Additional observations from a re-analysis of the deposited data

How the results depend on the processing

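In each of the 10 refits, 0 synthetases passed limma, and the 19 differences kept their direction in all but 2 of 169 values. Those came with only the highest row of a gene, FARSB at 0.055 and TARS1 at -0.076. With 1 library labelled shBCAT1 left out, 7 genes changed direction: FARSA (-0.037 to 0.089), FARSB (-0.16 to 0.013), GARS1 (-0.43 to 0.083), HARS1 (-0.26 to 0.069), QARS1 (-0.041 to 0.094), SARS1 (-0.19 to 0.33) and TARS1 (-0.099 to 0.20). The median was then 0.025 to 0.11 for cytosolic and 0.068 to 0.16 for mitochondrial genes. The cytosolic median was 0.14 with quantile normalization and the mitochondrial one 0.050 with a pseudocount of 5. Of all genes, limma called 14, but 0 without a minimum, 8 at a minimum of 5 FPKM and 7 with only the highest row. At that minimum 1 synthetase, FARSA, was left, so the counts with bounds apart above the control were 0 in shBCAT1 1 and 0 in shBCAT1 2, and no mitochondrial median could be given. With bounds 1.5 times as wide they were 0 and 2. No test is possible with 1 library against 1. No paired analysis was possible because the control has 1 library, and its label carries no replicate number. Depth limits the mitochondrial genes most.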

Other observations

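The transcript entry that carried a synthetase's value changed between libraries. HARS1 lay on 2 entries in the control, at 1.24 and 0.601 FPKM, on 2 different ones in shBCAT1 1, at 1.15 and 0.831 FPKM, and in shBCAT1 2 almost wholly on 1, at 1.36 FPKM, which was the lesser of those used in the control. IARS1 lay on a coding entry in the control (0.506 FPKM) and shBCAT1 2 (0.957 FPKM) and on a non-coding one in shBCAT1 1 (0.617 FPKM). WARS1 was at 1.25 FPKM on 1 entry in the control, and in shBCAT1 2 that entry held 0.0882 FPKM beside 0.814 FPKM on another. Entries of a gene share most of their sequence, and the cause was not tested.

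Genes for selenocysteine tRNA charging were all under the minimum of 1 FPKM. SEPHS2, which makes the selenium donor, was at 0.310 FPKM in the control, 0.571 in shBCAT1 1 and 0.909 in shBCAT1 2, with bounds apart above the control in shBCAT1 2, and was named after its values were seen. EEFSEC, the elongation factor for selenocysteine, was at 0.558, 0.955 and 1.05 FPKM, with overlapping bounds. The 4 genes of mitochondrial transamidation and formylation (GATB, GATC, QRSL1 and MTFMT) had bounds that overlapped the control in both libraries.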
